A study of Rattus norvegicus with 18 samples.

Results

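The genes described here build and supply the cilium. They were taken as every gene on the array whose symbol begins with Ift, Bbs or Cep followed by a digit, each read by its brightest probe set (a set of short probes for 1 transcript), which gave 45 genes of the 14506 that carried 1 symbol. Of these, 17 encode intraflagellar transport proteins, 6 encode Bardet-Biedl syndrome proteins and 22 encode centrosomal proteins. Membership followed the symbols, but the rule was set with earlier results of these data known. The brightest probe set was picked by measured signal. The paper had already listed Ift57 among genes regulated in SafLD against control and not in PBMLD or LD. The Ift57 rise in SafLD against control is therefore a description of a known result, not an unselected finding. The same SafLD arrays enter every other Ift57 result that includes that group, so the limit holds there too.

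Retinal RNA from Sprague Dawley rats aged 80 to 120 days, raised in cyclic light of 5 lux, had been read on 18 arrays, 3 in each of 6 groups. SafLD retinas came from animals given a daily saffron feed of 1 mg/kg over 3 weeks and then exposed to damaging light for 24 h. PBMLD retinas had photobiomodulation, a red light treatment, for 3 min a day on 5 days before the same light, and LD retinas had the light alone. Saffron and PBM retinas had the pretreatment alone, and control retinas had neither. All animals were fed the vegetable matrix that served as the saffron vehicle. For the LD arrays the labels give 1000 lux in one field and 100 lux in another, so the labels do not settle the intensity. The methods give 1000 lux for this group. The methods state that each retina came from a different animal and that 4 animals were used per group. The labels list 3 arrays per group, and the spread between arrays therefore covers 3 animals.

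A photoreceptor outer segment is a modified cilium, joined to the cell body by the connecting cilium, through which all of its protein has to pass. Intraflagellar transport (IFT) trains carry cargo along the axoneme: the IFT-B complex is needed for movement toward the tip and the IFT-A complex for the return. The BBSome, built from Bardet-Biedl syndrome proteins, links membrane cargo to these trains, and its loss in mice lets foreign proteins collect in outer segments. Many Cep proteins belong to the centriole that anchors the cilium, and others act in cell division.

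The values were log2 intensities summarised by RMA (robust multichip average), so a difference of 1 is a 2-fold change. A gene is said to have passed the test where its limma p, adjusted over all 29214 probe sets by the Benjamini-Hochberg method, was below 0.05, whatever the fold. Of the 45 genes, 41 were brighter than the array medians, which lay between 6.12 and 6.20. The dimmest were Cep55 and Cep295nl, with means of 2.96 and 3.98, both in the dimmest 0.25 of probe sets. The SD within groups had a median of 0.189 over the 45 genes and 0.193 over all named genes. Properties of the arrays stand beside the results. The mean of 17 rod genes was 11.64 to 11.72 in SafLD, 11.58 to 11.83 in PBMLD and 11.31 to 11.78 in LD, against 11.91 to 12.06 in the 9 unexposed arrays, so every light-exposed array lay below every unexposed one. In whole retina, fewer rods and less RNA per rod cannot be told apart. The mean of 14 lens genes was highest in LD 1, LD 3, saffron 1 and PBMLD 1, at 10.68 to 11.55. The part of either in the results was not tested, and results are given without these 4 arrays where the call changed. Array PBMLD 2 also stood apart for several of the 45 genes. It is named for some of them, not for every value that it moved.

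Ift57 was the member that passed the test in the planned comparisons. It encodes a subunit of IFT-B2, the peripheral part of IFT-B, and is also known as HIPPI for its binding to a huntingtin-interacting protein. In zebrafish, loss of Ift57 leaves short outer segments. Its log2 level was 9.59, 9.55 and 9.74 in the SafLD retinas. It was 8.67, 9.47 and 8.55 in PBMLD and 8.64, 9.25 and 9.09 in LD. In the unexposed retinas it was 8.41, 8.17 and 8.60 in saffron, 8.26, 8.29 and 8.21 in PBM, and 8.26, 8.30 and 8.06 in control. The SafLD retinas lay above all 15 other arrays, and the LD retinas lay above all unexposed ones. The PBMLD retinas lay above PBM and control but overlapped saffron, and their mean leaned on PBMLD 2.

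Ift57 rose in SafLD against control by 1.42 ± 0.20 on the log2 scale (SE, a 2.68-fold change, adjusted p = 6.48e-04). It rose in SafLD against saffron by 1.23 ± 0.20 (2.35-fold, adjusted p = 0.00232). In LD against control the difference was 0.79 ± 0.20 with adjusted p = 0.0782, and it passed the test without LD 1 (adjusted p = 0.0241) or without PBMLD 2 (adjusted p = 0.0107). In PBMLD the difference was 0.69 against control (adjusted p = 0.149) and 0.64 against PBM (adjusted p = 0.298). Without PBMLD 2 these became 0.40 and 0.35. The saffron and PBM differences from control were 0.19 and 0.05, with 95% intervals of -0.24 to 0.61 and -0.38 to 0.47.

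Whether saffron changed the Ift57 response to light was asked directly. SafLD stood 0.63 above LD, with an interval of 0.21 to 1.06 and adjusted p = 0.27. The difference between the light response after saffron and that without it was 0.44, with an interval of -0.16 to 1.05 and adjusted p = 0.882, and it was 0.27 without LD 1. SafLD stood 0.73 above PBMLD (adjusted p = 0.435), a comparison added after the values were seen. None of the 3 passed the test, so a larger response after saffron was not established over all probe sets. Array weights are estimated from the scatter of each array in these same values. With them, SafLD against LD passed for Ift57 (adjusted p = 0.0278), and the difference between responses did not (adjusted p = 0.387). The highest weight, 2, went to LD 1, the lowest LD array for Ift57. With 1 array left out, SafLD against LD ran over 0.46 to 0.76 without a call.

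**Figure D1:**
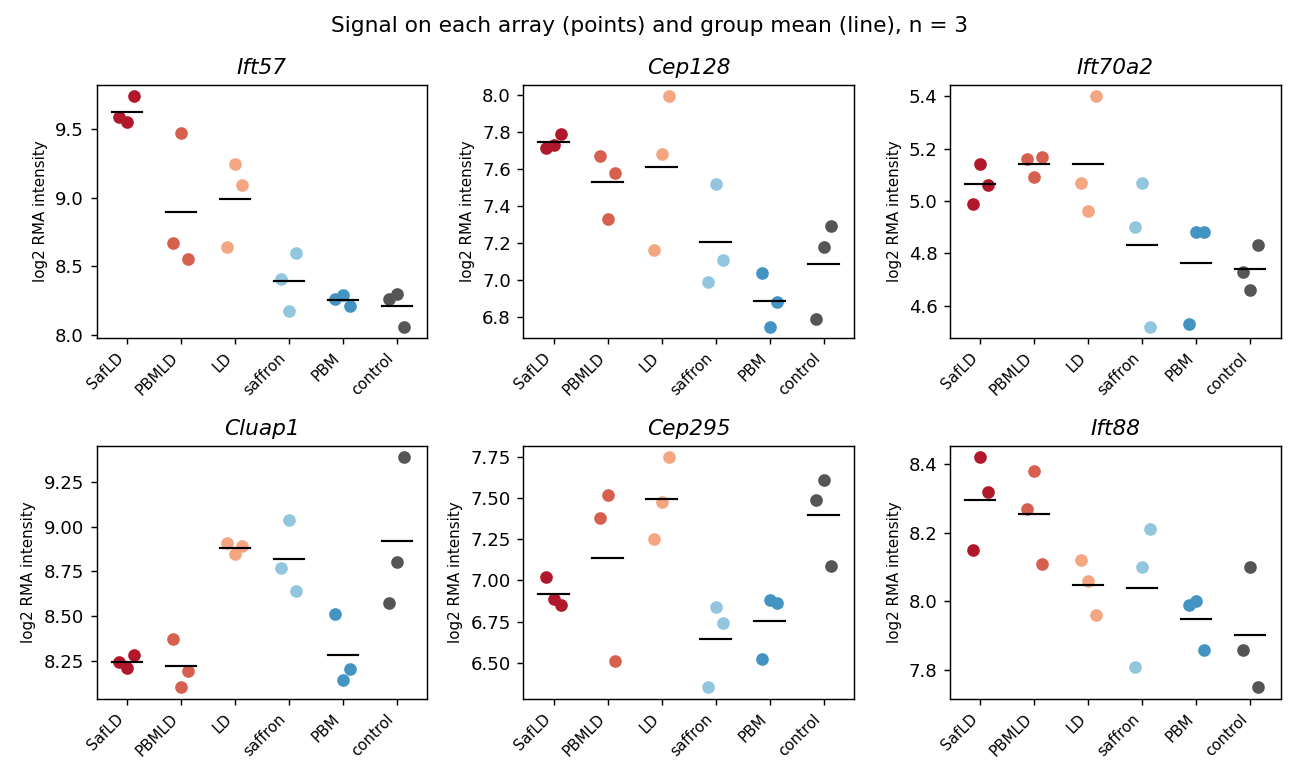
Log2 RMA intensity (vertical axis, a separate scale in each panel) of Ift57, Cep128, Ift70a2, Cluap1, Cep295 and Ift88 on each of the 18 arrays, by group. Points are single retinas and lines are means of 3. Ift57 lies between 9.55 and 9.74 in SafLD, above every other array, while Cluap1 is low in SafLD, PBMLD and PBM.

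None of the other IFT-B2 genes passed the test. Ift20, whose protein moves cargo from the Golgi apparatus to the cilium, had SafLD levels of 10.81, 10.52 and 10.46 and control levels of 10.70, 10.55 and 10.80. Ift80, mutated in skeletal ciliopathies, had 9.87, 9.70 and 9.60 in SafLD and 9.64, 9.62 and 9.55 in control. Ift172, which takes part in turnaround at the ciliary tip, had 8.80, 9.17 and 9.13 in SafLD and 8.78, 9.07 and 8.63 in control. The groups overlapped for all 3. Their SafLD differences from control were -0.09, 0.12 and 0.21, and every 95% interval stayed between -0.48 and 0.64.

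Cluap1, also called Ift38, belongs to the same subcomplex under a name outside the symbol rule, and is described because of its values. Its level was 8.24, 8.21 and 8.28 in SafLD, 8.37, 8.10 and 8.19 in PBMLD and 8.91, 8.85 and 8.89 in LD. It was 8.77, 9.04 and 8.64 in saffron, 8.51, 8.14 and 8.20 in PBM and 8.57, 8.80 and 9.39 in control. The SafLD and PBMLD arrays lay below all LD, saffron and control arrays. Cluap1 fell by 0.68 in SafLD against control (adjusted p = 0.0433), but the call was lost when any of 11 of the 18 arrays was left out. Over the 18 omissions the adjusted p ran between 0.0234 and 0.169, the highest without control 3, where the difference was -0.44. The call was also lost under 6 of 12 other settings. SafLD stood 0.64 below LD and PBMLD 0.66 below LD, with adjusted p of 0.155 and 0.134. Traf3ip1, also called Ift54, is a further subunit of that subcomplex and had 7.56, 7.93 and 7.94 in SafLD against 7.59, 7.58 and 7.29 in control, which overlapped, at a difference of 0.32 (adjusted p = 0.265).

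Of the 11 IFT-B1 genes, which form the core of the complex, none passed the test in any pairwise comparison. Ift88, whose partial loss in the Tg737 mouse causes photoreceptor degeneration, had 8.15, 8.42 and 8.32 in SafLD, 8.27, 8.38 and 8.11 in PBMLD and 8.12, 8.06 and 7.96 in LD. It had 7.81, 8.10 and 8.21 in saffron, 7.99, 8.00 and 7.86 in PBM and 7.86, 8.10 and 7.75 in control. The SafLD and PBMLD arrays lay above the control arrays, and the LD arrays overlapped them. The differences from control were 0.39 in SafLD, 0.35 in PBMLD and 0.14 in LD, with adjusted p of 0.129, 0.29 and 0.819. Ift27 and Ift22, both small GTPases of the complex, lay 0.47 and 0.48 below control in SafLD (adjusted p = 0.115 and 0.117). Ift22 passed once control 3 was left out (adjusted p = 0.0387).

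Ift70a2 and Ift70b encode near-identical proteins from neighbouring gene copies, so probes may not separate them fully. Ift70a2 was dim, with a mean of 4.95, and had 4.99, 5.14 and 5.06 in SafLD, 5.16, 5.09 and 5.17 in PBMLD and 5.07, 4.96 and 5.40 in LD. It had 4.90, 5.07 and 4.52 in saffron, 4.53, 4.88 and 4.88 in PBM and 4.73, 4.66 and 4.83 in control. Every light-exposed array lay above every control and PBM array. The differences from control were 0.33, 0.40 and 0.40 in SafLD, PBMLD and LD, with adjusted p of 0.272, 0.275 and 0.317. Ift70b had 8.34, 8.19 and 8.37 in PBM against 8.87, 8.70 and 8.67 in control. The 2 sets of arrays did not overlap, at a difference of -0.45 (adjusted p = 0.21).

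The 2 IFT-A genes measured under the rule were Ift43 and Ift122. Ift122 had 8.69, 8.88 and 8.94 in SafLD against 8.59, 8.81 and 8.38 in control. Ift43 had 7.75, 7.49 and 7.59 in SafLD, 7.37, 8.11 and 7.19 in PBMLD, 7.78, 7.75 and 7.93 in LD and 7.79, 7.87 and 7.91 in control. PBMLD 1 and PBMLD 3 were the lowest arrays and PBMLD 2 the highest. The Ift43 difference between PBMLD and control was -0.30 (adjusted p = 0.525), and without PBMLD 2 it was -0.58 (adjusted p = 0.0221). Ift140 was not among the symbols measured here.

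The differences of the 6 Bbs genes from control lay between -0.42 and 0.19, without a call as first fitted. Bbs1, a BBSome subunit often mutated in the human syndrome, had 8.96, 9.14 and 9.11 in SafLD, 9.36, 9.11 and 9.46 in PBMLD and 9.28, 9.28 and 8.95 in LD. It had 9.46, 8.98 and 9.42 in saffron, 9.31, 9.33 and 9.35 in PBM and 9.46, 9.54 and 9.35 in control. The SafLD arrays lay below the control arrays, as did the LD arrays, at differences of -0.38 (adjusted p = 0.165) and -0.28 (adjusted p = 0.565). Bbs4, whose product joins the BBSome last, had 10.99, 9.97 and 10.71 in PBMLD, against 11.15, 11.09 and 11.09 in PBM and 11.09, 10.98 and 10.87 in control. The PBMLD 2 value was the lowest of the 18 arrays for Bbs4, and also for Bbs2, Bbs7 and Bbs10. The Bbs4 difference between PBMLD and control was -0.42, and -0.13 without that array. No Bbs gene passed the test in any of the pairwise comparisons as first fitted. Every 95% interval against control was narrower than a 2-fold change in either direction. With array weights Bbs1 passed in SafLD against control, beside 10.9% of all probe sets. Bbs4 then passed for light-exposed against unexposed arrays, beside 9.18%.

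Among the 22 Cep genes, Cep128 showed the clearest difference between exposed and unexposed retinas. It encodes a protein of the subdistal appendages of the mother centriole. Cep128 had 7.71, 7.73 and 7.79 in SafLD, 7.67, 7.33 and 7.58 in PBMLD and 7.16, 7.68 and 7.99 in LD. It had 6.99, 7.52 and 7.11 in saffron, 7.04, 6.75 and 6.88 in PBM and 6.79, 7.18 and 7.29 in control. The SafLD and PBMLD arrays lay above all control and PBM arrays, and LD 1 fell inside the control range. Against control the differences were 0.65 in SafLD, 0.44 in PBMLD and 0.52 in LD, with adjusted p of 0.0804, 0.38 and 0.314. The SafLD difference passed without LD 1 (adjusted p = 0.0455), without LD 3 (0.0493) and without the 4 lens-rich arrays (0.0387). The LD difference passed without LD 1 at 0.75 (adjusted p = 0.0477), and was 0.33 without LD 3 (adjusted p = 0.782).

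Cep290, a transition zone protein whose loss causes Leber congenital amaurosis, had 10.08, 9.69 and 9.77 in SafLD, 9.81, 9.08 and 9.50 in PBMLD and 9.61, 9.44 and 10.01 in LD. It had 9.33, 10.17 and 9.39 in saffron, 9.59, 9.17 and 9.25 in PBM and 9.12, 9.33 and 9.50 in control. It was the gene with the widest spread within groups (SD 0.308), and saffron 2 held its highest value. The SafLD difference from control was 0.53 (adjusted p = 0.247), with an interval of 0.04 to 1.01. Cep55, which acts in the last step of cell division, had 3.27, 3.03 and 3.30 in SafLD, 2.98, 2.82 and 2.56 in PBMLD, 2.81, 2.99 and 3.04 in LD and 2.95, 2.82 and 3.08 in control. These are among the lowest signals of the array. The SafLD arrays overlapped LD and control and lay above the PBMLD arrays.

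Cep295 is needed to convert a centriole into a working centrosome. Its low values were in saffron, PBM and SafLD retinas and in PBMLD 3, not in retinas exposed to light alone. Cep295 had 6.35, 6.84 and 6.74 in saffron and 6.52, 6.88 and 6.86 in PBM, against 7.49, 7.61 and 7.09 in control. The SafLD levels were 7.02, 6.89 and 6.85, the PBMLD levels 7.38, 7.52 and 6.51, and the LD levels 7.25, 7.48 and 7.75. Saffron, PBM and SafLD arrays all lay below every control and LD array. The differences from control were -0.76 in saffron (adjusted p = 0.989) and -0.64 in PBM (adjusted p = 0.353), so neither passed over all probe sets. Cep19, which brings a small GTPase and IFT-B to the ciliary base, had 9.07, 9.21 and 9.28 in PBM and 9.30, 9.18 and 8.87 in SafLD, against 9.73, 9.51 and 9.69 in control. Both groups lay below control without overlap, at differences of -0.46 and -0.53 (adjusted p = 0.405 and 0.124). In SafLD against saffron Cep19 passed once PBMLD 1 was left out (-0.58, adjusted p = 0.0455).

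Counts over the 45 genes put these cases in proportion. In SafLD against control 1 of 45 passed, Ift57, beside 2.8% of all probe sets, and 1 also changed more than 2-fold, beside 0.921%. At an unadjusted p below 0.05 there were 12 of 45 (26.7%), beside 16.9% of all probe sets. These 12 were 6 genes with higher values (Ift57, Ift88, Ift70a2, Cep97, Cep128 and Cep290) and 6 with lower values (Ift22, Ift27, Ift46, Bbs1, Cep19 and Cep295). In SafLD against saffron 1 of 45 passed, again Ift57, beside 2.09% (0.825% with more than 2-fold), and 8 had an unadjusted p below 0.05, beside 14.7%. By the moderated F test over the 6 groups 1 of 45 passed, Ift57, beside 3.1%, and 10 had an unadjusted p below 0.05, beside 17.4%. Cep128 also passed the F test without saffron 2, LD 1 or PBMLD 2, Ift43 without PBMLD 2 and Cep295 without PBMLD 3.

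In the other comparisons planned, limma called 0 of the 45. In LD against control this stood beside 1.11% of all probe sets, with 4 genes at an unadjusted p below 0.05 beside 9.58%. In PBMLD against control it stood beside 0.753%, with 6 genes beside 12%. In PBM against control it stood beside 0.154%, with 5 genes beside 9.96%. In saffron against control it stood beside 0%, with 1 gene, Cep295, beside 4.6%. In these 4 comparisons the shares of the 45 genes with an unadjusted p below 0.05 were close to, or below, those of the whole array.

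In PBM against control the 5 genes with an unadjusted p below 0.05, namely Ift70b, Cep15, Cep19, Cep70 and Cep295, all had lower values, between -0.45 and -0.64. The methods' t-test, run on the same values, gave 0 adjusted calls among the 45 genes in every pairwise comparison, beside 0.0342% of all probe sets in SafLD against control, 0.0445% in PBM against control and 0% in the rest. Without adjustment it gave, against control, 13 in SafLD beside 17.2% of all probe sets, 1 in PBMLD beside 8.06%, 5 in LD beside 8.19%, 1 in saffron beside 4.57% and 10 in PBM beside 13.8%. Of these, 1 was over 2-fold in SafLD, beside 1.26%, and 0 in PBMLD (0.561%), LD (0.647%), saffron (0.089%) and PBM (0.308%).

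PBMLD against LD gave 0 of 45 beside 0.284%, with 2 genes (Ift52 and Ift56) at an unadjusted p below 0.05 beside 11.5%. PBMLD 2 was the highest PBMLD array for Ift52 (9.06, 9.65 and 9.45) and the lowest for Ift56 (6.98, 6.31 and 6.97). SafLD against LD gave 0 beside 0.308%, with 2 (Ift57 and Cep295) beside 9.55%. PBMLD against PBM gave 0 beside 0.329%, with 11 (24.4%) beside 8.12%. Of the 11, 3 were Bbs genes with lower values. Without PBMLD 2, Bbs4 was the only Bbs gene with an unadjusted limma p below 0.05 (0.0432). Ift25 and Ift43, which were not among the 11, then had 0.00158 and 0.00227. SafLD against PBMLD gave 0 beside 0%, with 8 beside 8.32%. By the methods' t-test the unadjusted counts were 1 in PBMLD against LD beside 6.35% of all probe sets, 4 in SafLD against LD beside 9.47%, 7 in PBMLD against PBM beside 6.9% and 3 in SafLD against PBMLD beside 5.41%. In PBMLD against PBM, Bbs4 passed once PBMLD 1 was left out (-0.77, adjusted p = 0.0447). Without PBMLD 2, its lowest array, the difference was -0.26 (adjusted p = 0.613).

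The 2 interactions asked whether a pretreatment changed the response to light. The one with PBM gave 0 of 45 beside 0.00685%, with 4 genes (Ift46, Ift52, Ift70b and Cep19) at an unadjusted p below 0.05 beside 4.26%. For all 4 the response was higher after PBM. The highest PBMLD array was PBMLD 2 for Ift46, Ift52 and Cep19, and PBMLD 3 for Ift70b. The one with saffron gave 0 of 45 by limma beside 0.14%, and 0 at an unadjusted p below 0.05 beside 5.84%. No pairwise methods' t-test applies to an interaction.

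Over the 45 genes the median difference from control was 0.07 in SafLD, -0.07 in PBMLD, -0.04 in LD, 0.03 in saffron and -0.09 in PBM, beside 0.02, 0.03, -0.02, 0.01 and 0.03 over all probe sets. Rod genes over the same comparisons had medians of -0.23 in SafLD, -0.26 in PBMLD and -0.30 in LD. The cilium transport and centrosome genes were thus level on the median where rod genes were lower. These 3 comparisons share the control arrays. The 95% intervals also bound what these data leave room for: 42 of 45 genes in SafLD, 44 in PBMLD and 44 in LD had an interval against control that stayed within a 2-fold change either way.

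**Figure D2:**
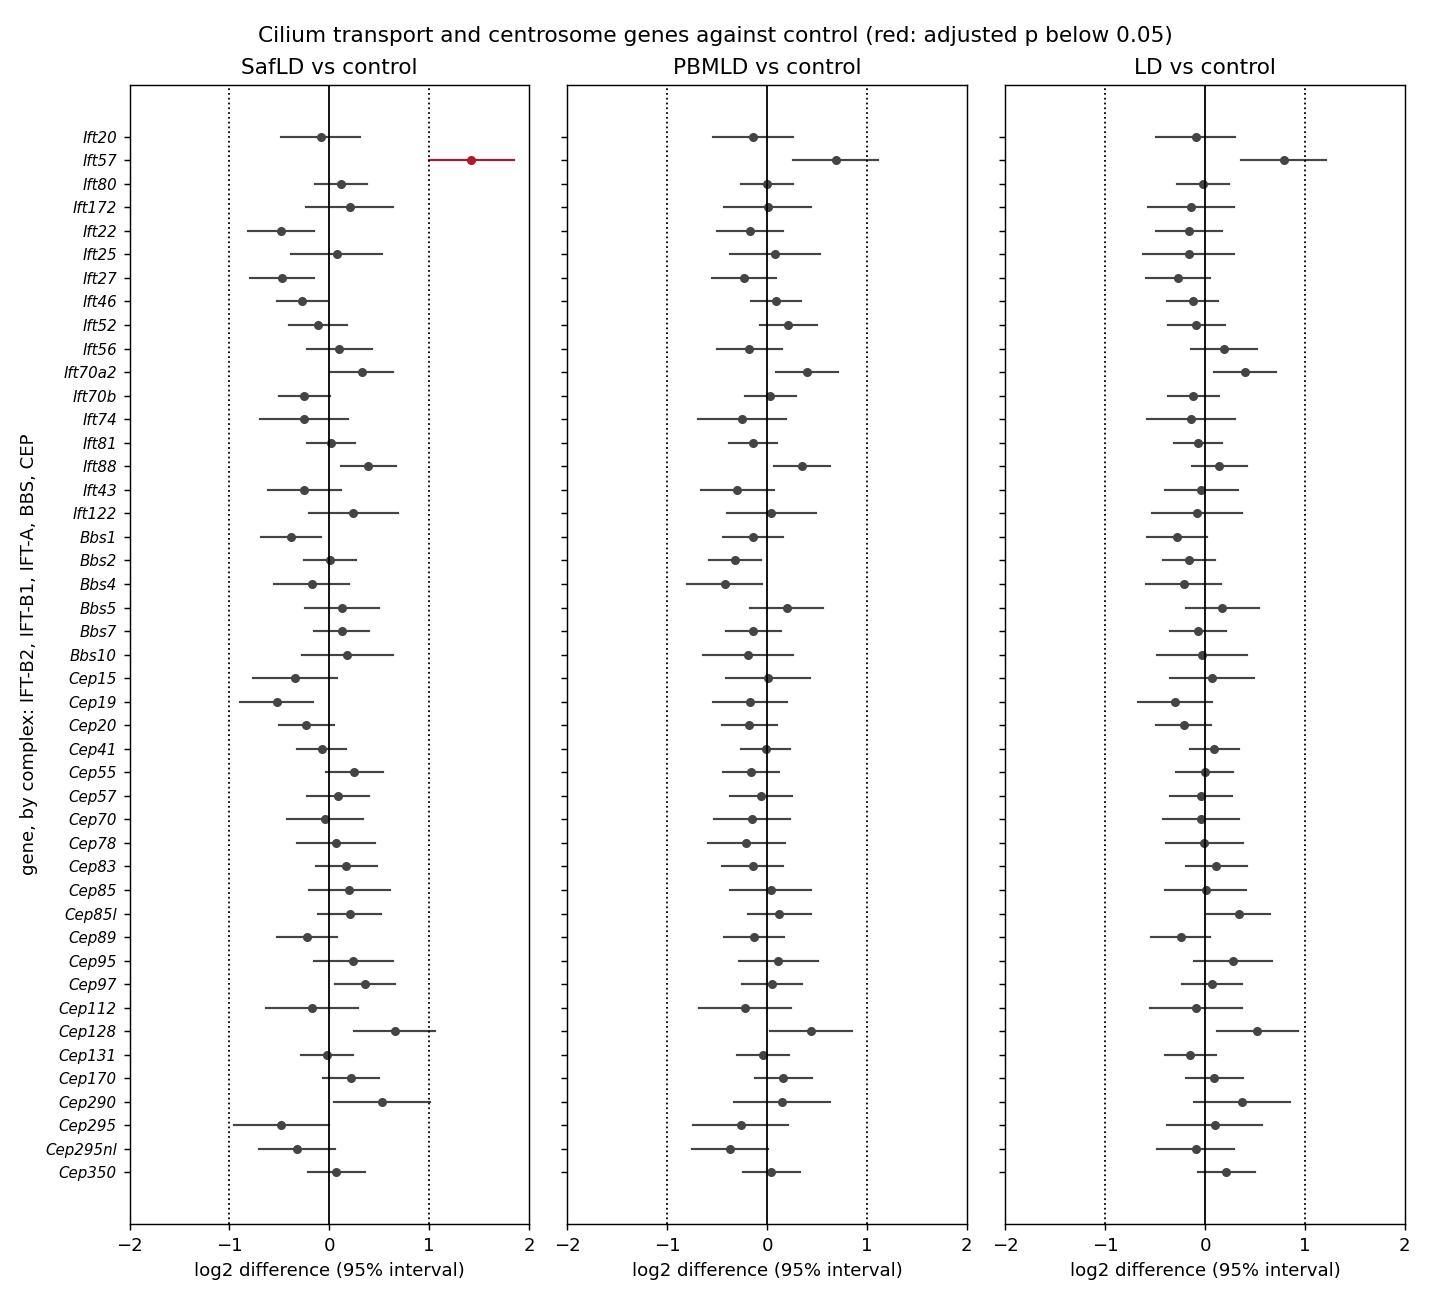
Log2 difference from control (horizontal axis) with its 95% limma interval for each of the 45 genes in SafLD, PBMLD and LD, ordered by complex. Dotted lines mark 2-fold changes and red marks an adjusted p below 0.05. Ift57 in SafLD, at 1.42, is the only red gene, and most intervals cross 0 and stay inside the dotted lines.

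The response to light can be read 3 times on arrays that do not overlap, from SafLD against saffron, PBMLD against PBM and LD against control. Of the 45 genes, 8 had higher values in light in all 3 (Ift57, Ift70a2, Ift88, Cep85l, Cep128, Cep170, Cep290 and Cep295) and 8 had lower values in all 3 (Ift27, Ift81, Ift43, Bbs1, Bbs4, Cep89, Cep112 and Cep295nl). The 35.6% that kept 1 direction was close to the 36.7% of all named genes. Ift57 and Cep128 had an unadjusted p below 0.05 in each of the 3, which is 4.44% of the 45 genes beside 2.25% of all named genes. The SafLD values of Ift57 were known beforehand, so its place in this share was not unselected. Their differences were 1.23, 0.64 and 0.79 for Ift57 and 0.53, 0.63 and 0.52 for Cep128, in the order of comparisons above, and the 0.64 was 0.35 without PBMLD 2.

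**Figure D3:**
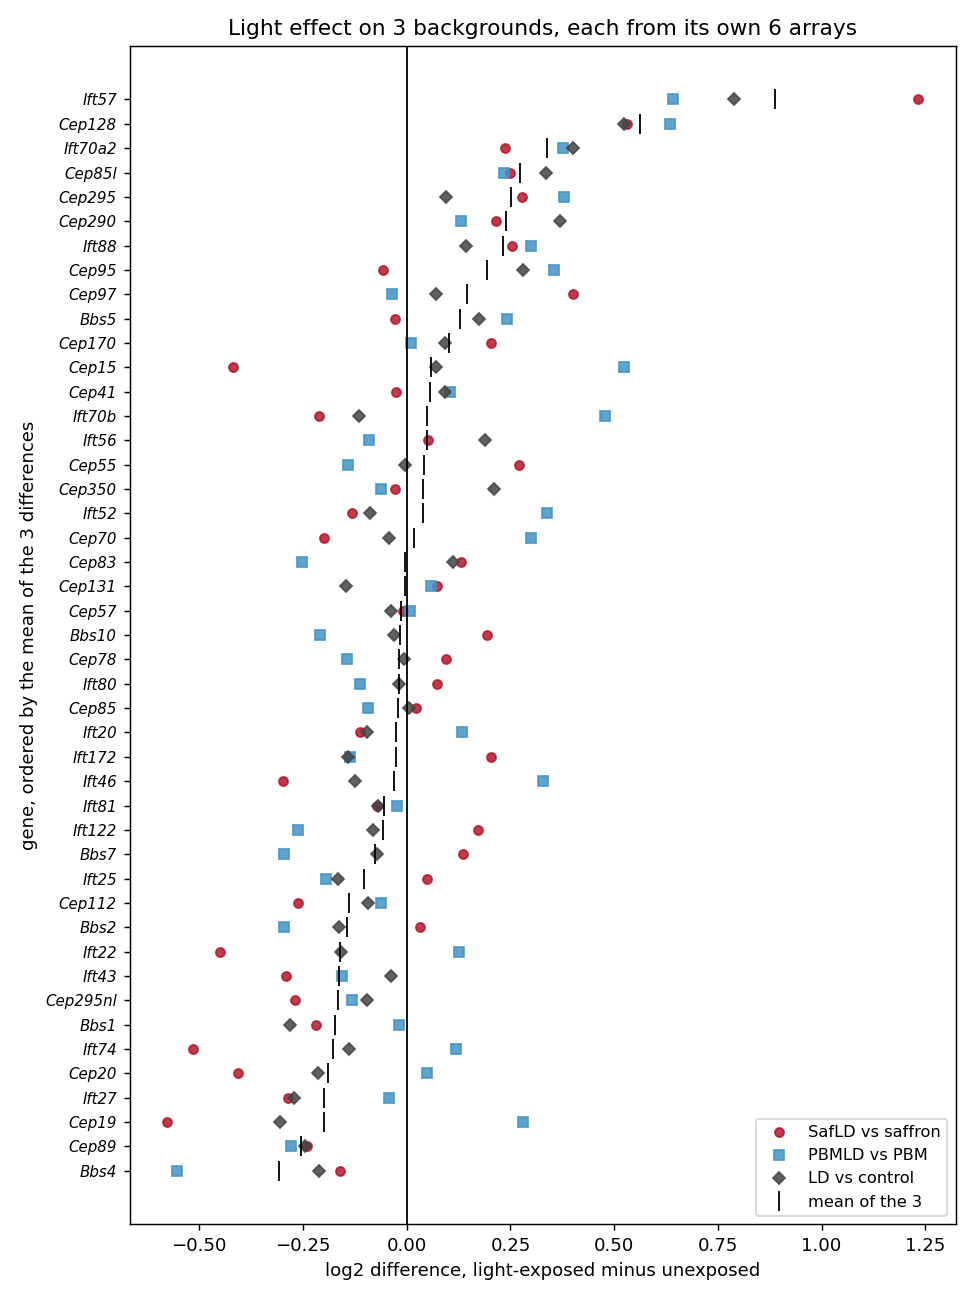
Log2 difference between light-exposed and unexposed retinas (horizontal axis) for each of the 45 genes, on the saffron, PBM and untreated backgrounds, each from its own 6 arrays. Bars mark the mean of the 3. Ift57 (0.64 to 1.23) and Cep128 (0.52 to 0.63) stand to the right on all 3, and most genes scatter around 0.

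The mean of these 3 differences was tested after the values had been seen, as a contrast of the 9 light-exposed with the 9 unexposed arrays. Of the 45 genes 3 passed, beside 4.82% of all probe sets, and 10 had an unadjusted p below 0.05, beside 16.1%. All 3 rose: Ift57 by 0.89 ± 0.12 (SE, adjusted p = 1.33e-04), Cep128 by 0.56 ± 0.11 (adjusted p = 0.00517) and Ift70a2 by 0.34 ± 0.09 (adjusted p = 0.0282). Rod gene levels were lower in the same 9 arrays, and their part in these values was not tested. Without the 4 lens-rich arrays Ift57 stood at 1.01 (adjusted p = 7.46e-04) and Cep128 at 0.53 (adjusted p = 0.0172). That fit kept 1 LD array, which was assumed to vary like the other groups. Ift70a2 lost its call without those arrays, and without any 1 of control 1, control 2, PBM 1, LD 3, SafLD 2 or SafLD 3 (adjusted p 0.0539 to 0.0637). Bbs4 passed without PBMLD 1 (-0.38, adjusted p = 0.0185), but not without PBMLD 2 (-0.21, adjusted p = 0.061). Ift43 passed without PBMLD 2 (-0.25, adjusted p = 0.0254). Cep89, at -0.25 (adjusted p = 0.095), passed after quantile normalization (adjusted p = 0.0333), after cyclic loess (0.0345) and with array weights (0.0239).

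**Figure D4:**
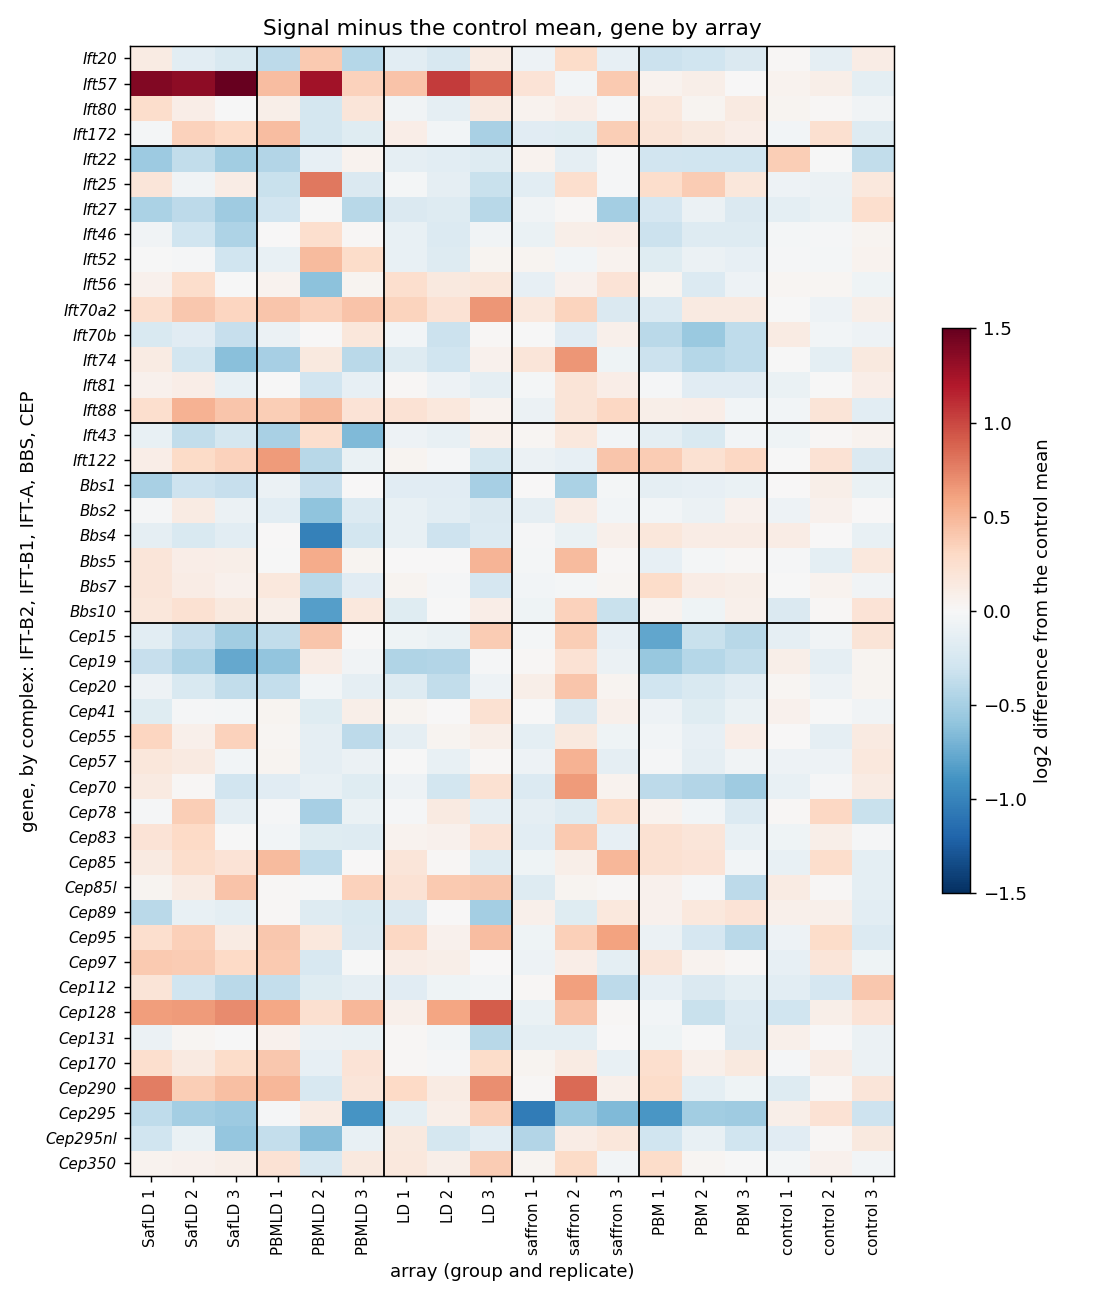
Log2 difference from the control mean for the 45 genes (rows, by complex) on the 18 arrays (columns, by group), with red higher and blue lower. The Ift57 row is dark red in SafLD and the Cep128 row red over most light-exposed arrays, Cep295 is blue in saffron and PBM, and PBMLD 2 differs from its 2 group partners over the Bbs rows.

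Promoters are shown for Cep128 and Ift70a2, which passed in the light contrast, and for Ift88, whose window holds the motif searched. RFX transcription factors drive many cilium genes through an X-box. A half-site of it, GTTGCC, was searched on both strands (GGCAAC on the other) in the 250 bases before each RefSeq start on GRCr8. A match to the half-site alone does not show an X-box. Of the 39 members with a promoter in the table, 8 held it (20.5%), beside 9.89% of 33469 promoters. The 8 were Ift27, Ift81, Ift88, Bbs5, Cep19, Cep57, Cep89 and Cep170, of which none passed the test in any comparison as first fitted. Ift57 is not among the 39. Capitals mark the half-site, whose first base lies 34 bases before the start of Ift88. The windows are chr15:35688737-35688986 (plus strand) for Ift88, chr6:116059759-116060008 (minus strand) for Cep128 and chr3:81308897-81309146 (minus strand) for Ift70a2, each written 5′ to 3′ on the strand of the gene.
Ift88: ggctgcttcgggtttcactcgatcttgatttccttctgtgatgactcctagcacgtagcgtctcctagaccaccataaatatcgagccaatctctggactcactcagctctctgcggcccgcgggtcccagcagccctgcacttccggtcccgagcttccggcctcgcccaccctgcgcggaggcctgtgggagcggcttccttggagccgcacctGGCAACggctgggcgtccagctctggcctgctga
Cep128: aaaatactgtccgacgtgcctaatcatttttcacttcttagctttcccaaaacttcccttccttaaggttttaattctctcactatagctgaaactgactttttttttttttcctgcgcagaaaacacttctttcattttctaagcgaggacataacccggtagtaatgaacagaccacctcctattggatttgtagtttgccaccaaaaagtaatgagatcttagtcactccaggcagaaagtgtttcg
Ift70a2: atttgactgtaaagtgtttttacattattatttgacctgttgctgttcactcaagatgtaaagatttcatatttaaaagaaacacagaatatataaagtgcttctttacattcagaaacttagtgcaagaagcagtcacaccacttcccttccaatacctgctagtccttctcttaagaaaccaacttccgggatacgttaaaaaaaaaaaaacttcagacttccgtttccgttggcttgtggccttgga

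Genes of the cilium under other names were read for comparison. From 8 lists (other IFT and BBSome subunits, motors, lipid-protein trafficking, transition zone, photoreceptor axoneme and centriole) 70 genes were measured. In SafLD against control 2 rose and 5 fell, which is 10% beside 2.8% of all probe sets and 3.3% of named genes. Those that rose were Mak and Nphp4, and those that fell were Cluap1, Pde6d, Tmem237, B9d1 and Cby1. In LD against control Mak and Nphp4 rose (2.86%, beside 1.11% of all probe sets and 1.74% of named genes). In PBMLD against control Mak rose and Tmem237 fell (2.86%, beside 0.753% and 0.889%), and in saffron and PBM none of the 70 passed. In the light contrast 3 rose (Mak, Nphp4 and Plk4) and 7 fell (Rab3ip, Unc119, Pde6d, Tulp1, Tmem237, Cetn2 and Cby1), which is 14.3% beside 4.82% of all probe sets and 6.29% of named genes. Of the 17 rod genes 7 passed with lower values in the same contrast, at a median of -0.26 over the 17. The part of rod level in the counts of these lists was not tested.

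Mak, a kinase that limits the length of the photoreceptor axoneme, had 11.70, 11.95 and 11.97 in SafLD, 11.69, 11.39 and 11.62 in PBMLD and 11.72, 11.79 and 11.85 in LD. It had 10.97, 11.15 and 11.21 in saffron, 11.18, 11.05 and 11.13 in PBM and 11.06, 11.15 and 10.91 in control. All 9 light-exposed arrays lay above all 9 unexposed arrays. Rod gene levels were lower in the light-exposed arrays, and their part in the Mak values was not tested. The differences from control were 0.83 in SafLD (adjusted p = 6.92e-04) and 0.75 in LD (adjusted p = 0.00307).

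Nphp4, a nephrocystin of the transition zone, had 7.67, 7.83 and 8.03 in SafLD, 7.80, 7.94 and 7.60 in PBMLD and 7.80, 7.89 and 7.84 in LD, against 7.15, 7.26 and 7.25 in control. Tmem237, a membrane protein of the same zone, had 9.29, 9.34 and 9.35 in SafLD, 9.48, 8.76 and 9.01 in PBMLD and 9.40, 9.27 and 9.31 in LD, against 9.91, 10.13 and 9.84 in control. Neither gene's light-exposed arrays overlapped control, and the 2 transition zone genes lay on opposite sides of it. Nphp4 rose by 0.62 in both SafLD and LD (adjusted p = 0.0133 and 0.0216). Tmem237 fell by 0.64 in SafLD and by 0.88 in PBMLD (adjusted p = 0.0435 and 0.0126), where PBMLD 2 was the lowest array. Its difference in LD was -0.63, which did not pass. Neither gene was read with arrays left out.

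Markers of multiciliated cells, an epithelial type that is rich in cilium genes and foreign to retina, had means between 5.00 and 5.26 in all 18 arrays, below the array medians. The light-exposed and unexposed ranges were 5.06 to 5.26 in SafLD, 5.11 to 5.26 in PBMLD and 5.10 to 5.24 in LD, against 5.00 to 5.16 in the others. Of the 9 markers measured, Dnai2 rose in SafLD against control (0.57, adjusted p = 0.0422). In the light contrast Dnai2 rose by 0.50 (adjusted p = 0.00124) and Tekt1 fell by 0.30 (adjusted p = 0.0402). The part of these markers in the results was not tested.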

How the data were processed

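Total RNA of each retina had been labelled and hybridised to an Affymetrix rat Gene 1.0 ST array. The deposited unit was the log2 intensity of a probe set, obtained by the authors through RMA in Affymetrix Expression Console 1.1.2800.19935 per the submitters' processing notes. No source used here gives the build behind the probe annotation, the scan date or the slide. The number of arrays limits the precision.

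The table held 29214 probe sets: 15310 with 1 gene symbol in the platform annotation, 323 with several and 13581 with none. All 45 members matched RefSeq by Entrez gene. Cep112 had 2 probe sets, of which the brighter was taken. R 4.3.3 and limma 3.58.1 fitted the 6 groups together (12 residual and 5.05 prior degrees of freedom, two-sided tests, Benjamini-Hochberg adjustment), after a test on data with planted differences. The methods' t-test compared 2 groups at a time. List genes under older names were matched through RefSeq synonyms where the name was not itself a current symbol.

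Named by rule were Ift57, every member that passed, Cep55, Cep290, Bbs1, Ift88, Ift172 and Ift140, and list genes that passed in LD. Other genes with values were chosen after those were seen. Members and lists were chosen with earlier results of these data known. Promoter sequences are RefSeq's, on GRCr8. Alternatives were array weights, a mean-variance trend with robust estimation, the compared groups by themselves, 3 further normalizations (median, quantile, loess), the leaving out of dim probe sets or of those without 1 symbol, probe set means, a replicate block and each array left out. Rod and lens means are over the genes of each list that were measured.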

Additional observations from a re-analysis of the deposited data

How the results depend on the processing

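Among the 45 genes and Cluap1, no difference that had passed the test changed direction. Several small differences that had not passed did, such as Ift57 in PBMLD against LD (-0.39 to 0.07 with 1 array left out). Ift57 in SafLD kept its call under every alternative but the methods' t-test with adjustment, which gave adjusted p = 0.0761 at 1.42 against control and 0.141 at 1.23 against saffron, with 0 members called in each. With 1 array left out its difference ran over 1.35 to 1.47 against control, 1.12 to 1.34 against saffron, and 0.79 to 0.95 for light-exposed against unexposed. Array weights gave more calls among the members and over all probe sets: 8 in SafLD (beside 10.9% of probe sets), 1 in LD (2.13%) and 2 in PBM (2.75%) against control, 5 in SafLD against saffron (7.89%), 1 in SafLD against LD (2.2%), 1 in PBMLD against PBM (0.948%), 8 for light-exposed against unexposed (9.18%) and 5 by the F test (12.4%). They gave PBMLD 2 the lowest weight, 0.267. With only probe sets of 1 symbol there was 1 call in LD against control and 2 by the F test. Without the 4 lens-rich arrays, chosen after seeing the data, SafLD against control had 2, Ift57 and Cep128. With more than 2-fold required, light-exposed against unexposed had 0. With 1 array left out the counts ran over 0 to 2 in LD, 0 to 1 in PBMLD and 1 to 2 in SafLD against control, 0 to 1 in PBMLD against PBM, 1 to 2 in SafLD against saffron, and 1 to 3 by the F test. The replicate block left 1 in SafLD against control and 1 in SafLD against saffron, and changed no call among the members, while Cluap1 in SafLD against control lost its call (adjusted p = 0.0679). The numbers mark no shared litter or day, and 10 of 45 same-number correlations of deviations were over 0.1 (-0.386 to 0.306), with no group pair having all of its own over 0.1. Cep55 and Cep295nl lay in the dimmest 0.25 of probe sets, where signal over background limits what their values can show.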
